A study of Mus musculus with 12 samples.

Results

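The 9 genes described here are autism risk genes that belong to no ion channel, cell adhesion or synapse family. They were taken by symbol from the 46603 genes counted in mouse neocortex. The genes are Adnp, Pogz, Ash1l, Setd5, Irf2bpl, Dyrk1a, Ank2, Ank3 and Wdfy3, and all 9 passed the filter on low counts at both stages. RNA was sequenced from the neocortex of embryos at embryonic day 12.5 (E12.5) and of pups at postnatal day 5 (P5). The comparison asked how the loss of a single copy of Chd8, an autism gene that encodes a chromatin remodeler, alters cortical gene expression before and after birth. Each stage had 3 libraries of Chd8+/+ mice and 3 libraries of Chd8+/- mice, 12 in all. All animals were on the C57Bl/6J background, and no treatment was given. The Chd8+/- animals carried a null allele in every cell. It was made by removing exon 3 with a ubiquitous β-actinCre line, and the Cre transgene was later bred out. Both hemispheres were used at E12.5 and a single hemisphere at P5. The labels do not say that the libraries of a group came from separate litters, so the p-values measure only the spread between these libraries, which may be partly technical.

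Adnp and Pogz encode zinc finger proteins that sit on chromatin together with heterochromatin protein 1, Adnp in a complex with the remodeler CHD4. ASH1L is a histone methyltransferase of lysine 36 on histone H3, SETD5 is a SET domain protein that associates with the NCoR and HDAC3 corepressor complex, and IRF2BPL belongs to the family of interferon regulatory factor 2 binding proteins. DYRK1A is a kinase that acts in neurogenesis. Ank2 and Ank3 encode ankyrin-B and ankyrin-G, adaptors that anchor membrane proteins to the spectrin skeleton, the latter at the axon initial segment. WDFY3, also called ALFY, is a large BEACH domain protein that links cargo to the autophagy machinery.

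The genes differ widely in size. On GRCm38, Ank2 covers 577.7 kb at chr3:126921612-127499350 and Ank3 covers 493.7 kb at chr10:69533772-70027438. Wdfy3 lies at chr5:101832956-102069921, Ash1l at chr3:88950622-89079375, Dyrk1a at chr16:94570010-94695517, Setd5 at chr6:113077365-113153435 and Pogz at chr3:94837567-94882326. Irf2bpl is the shortest, a single exon of 4112 bases at chr12:86880703-86884814. Adnp lies at chr2:168180986-168207112, and 82.1% of its exonic bases (4393 of 5350) are shared with the predicted gene Gm20716 on the same strand. Read pairs that overlap more than a single gene are left out by default in this kind of counting, and only 43 to 119 were counted for Adnp in a library. How far its level is understated was not tested. Its values carry a much larger counting error than those of the other 8 genes, which had 4091 to 37577 counts in a library. Ash1l shares 352 exonic bases with Dap3, which lies on the opposite strand, Wdfy3 shares 554 with Gm20548 and Gm42934, and Ank2 shares 182 with Gm16958.

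RefSeq start regions (build GRCm38.p6, 250 bases before to 50 after a start site) were found for 6 of the 9 genes, namely Adnp, Pogz, Setd5, Irf2bpl, Dyrk1a and Ank2. Ank2 had 4 entries and Dyrk1a had 3. Only the entry nearest the start of the counted gene was used, 235 bases away for Ank2 and 196 for Dyrk1a. The 4 sequences below are shown because they belong to genes that differ between stages in opposite directions, Adnp and Pogz lower and Irf2bpl and Ank2 higher at P5. Each is written 5′ to 3′ on the strand of the gene. Capitals mark matches on either strand to 6 short motifs, which may overlap: the cAMP response element half-site TGACG, the GC box GGGCGG, the ETS core CGGAAG, the YY1 core GCCGCCAT, the NRF1 core GCATGCGC and the TATA box TATAAA.
Adnp, chr2:168207063-168207362, minus strand: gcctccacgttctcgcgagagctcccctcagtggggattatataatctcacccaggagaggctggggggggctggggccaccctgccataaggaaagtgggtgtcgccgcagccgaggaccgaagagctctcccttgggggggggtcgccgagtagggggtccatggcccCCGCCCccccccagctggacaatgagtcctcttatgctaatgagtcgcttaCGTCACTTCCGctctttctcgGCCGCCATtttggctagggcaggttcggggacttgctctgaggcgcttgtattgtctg
Pogz, chr3:94837187-94837486, plus strand: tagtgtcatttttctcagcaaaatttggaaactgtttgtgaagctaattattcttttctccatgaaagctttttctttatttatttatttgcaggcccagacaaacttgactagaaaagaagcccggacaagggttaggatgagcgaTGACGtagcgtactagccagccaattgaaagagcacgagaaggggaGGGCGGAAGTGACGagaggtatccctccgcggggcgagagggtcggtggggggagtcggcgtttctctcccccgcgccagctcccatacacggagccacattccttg
Irf2bpl, chr12:86884765-86885064, minus strand: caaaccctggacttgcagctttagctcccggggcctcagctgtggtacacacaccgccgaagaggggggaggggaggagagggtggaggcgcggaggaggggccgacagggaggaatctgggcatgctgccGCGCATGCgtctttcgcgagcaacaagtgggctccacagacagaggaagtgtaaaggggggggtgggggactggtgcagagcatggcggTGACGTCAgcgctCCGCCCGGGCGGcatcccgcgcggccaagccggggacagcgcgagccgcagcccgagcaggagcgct
Ank2, chr3:127499066-127499365, minus strand: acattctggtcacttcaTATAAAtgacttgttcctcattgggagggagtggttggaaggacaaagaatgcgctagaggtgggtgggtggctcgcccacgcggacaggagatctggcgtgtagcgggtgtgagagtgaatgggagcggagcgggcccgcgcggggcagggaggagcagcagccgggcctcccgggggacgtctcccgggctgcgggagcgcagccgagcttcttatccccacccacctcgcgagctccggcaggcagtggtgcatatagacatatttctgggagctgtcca

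In these windows TGACG was present in Adnp, Pogz and Irf2bpl and in 20.8% of all 32851 mouse windows of this length in the table. The 2 overlapping matches of Irf2bpl form the palindrome TGACGTCA. GGGCGG was present in the same 3 genes and in 35.7% of all windows. CGGAAG was present in Adnp and Pogz (16.9% of all windows), GCCGCCAT in Adnp alone of the 4 (2.24%), and GCATGCGC in Irf2bpl alone (2.71%). The Ank2 window held only the match to TATAAA (13.6% of all windows), 233 bases before the start site. The number of CG dinucleotides had a median of 7 over all windows. It was 17 in Adnp (68.6% of all windows held fewer), 16 in Pogz (67.0%), 26 in Irf2bpl (83.1%) and 21 in Ank2 (75.2%). The windows of the other genes with an entry held 54 in Dyrk1a, beside 4 matches to GGGCGG and none to the other motifs, and 1 in Setd5, beside no match to any of the 6 motifs, whose start site in the table lies 27570 bases from the start of the counted gene. A match to a motif is a description of the letters and not evidence of binding.

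The libraries held 38774591 to 50452472 counts at E12.5 and 41803596 to 54695236 at P5. Chd8 itself, counted over the whole gene, was lower in every Chd8+/- library, with 163.5 ± 3.31 CPM (read pairs relative to the library total, scaled by TMM, SD, n = 3) against 233 ± 3.55 at E12.5, and 96.5 ± 1.93 against 149 ± 3.11 at P5. With the filter on low counts, it was the only gene past an adjusted p of 0.05 by edgeR's quasi-likelihood test at either stage (log2 fold change -0.51, SE 0.039, adjusted p = 0.00562 at E12.5; -0.61, SE 0.034, adjusted p = 7.21e-05 at P5). Keeping all genes with at least 1 count, edgeR called 13 genes at E12.5 and 995 at P5, and DESeq2 called 3 and 651. The edgeR call of Chd8 at E12.5 was lost without Chd8+/+ library 3 (adjusted p = 0.141), without Chd8+/- library 1 (0.124) or without Chd8+/- library 3 (0.122), with log2 fold changes of -0.50 in each case. It was also lost with a replicate block, where edgeR called 0 genes at E12.5. DESeq2 gave Chd8 an adjusted p of 1.43e-19 at E12.5 with all libraries. Markers of cortical progenitors summed to 4418 to 4731 CPM over the E12.5 libraries and to 308 to 360 CPM at P5, and markers of cortical excitatory neurons to 537 to 788 and 2389 to 2605 CPM. Library 3 of P5 Chd8+/- stood apart from its group, with a chi-square per degree of freedom of 43.7 and 49.7 against the other pair, while the other 10 pairs of libraries within a group lay between 7.09 and 18.1. Xist was high in 1 library of each group (835 to 2009 CPM) and low in the others (0.172 to 2.20 CPM).

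Per length of exon, Irf2bpl was the highest of the 9 genes in all 4 groups. Levels between genes are given as RPKM, CPM per kilobase of exonic bases that no other gene shares. In E12.5 Chd8+/+ libraries Irf2bpl reached 23.9 ± 1.41 RPKM (SD, n = 3), followed by Pogz with 18.3 ± 0.747, Dyrk1a with 16.9 ± 1.17, Setd5 with 16.1 ± 0.947 and Wdfy3 with 14.4 ± 1.30. Library values of Pogz and Dyrk1a overlapped, as did those of Dyrk1a and Setd5 and of Setd5 and Wdfy3. Ash1l stood at 10.4 ± 0.301 RPKM, and Ank2 at 8.13 ± 0.243 overlapped with Ank3 at 7.41 ± 0.508. Adnp was the lowest at 2.14 ± 0.129 RPKM on its 957 unshared bases. This level and its rank may be understated, since pairs that reach into shared bases may be left out of the counts.

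At P5 the order changed. Irf2bpl stood at 34.3 ± 1.40 RPKM in Chd8+/+ libraries, and Ank2 moved from seventh to second with 22.8 ± 0.298. Wdfy3 (14.1 ± 0.452) and Ank3 (13.8 ± 0.239) overlapped, and were followed without overlap by Dyrk1a with 12.6 ± 0.262, Pogz with 11.1 ± 0.467, Setd5 with 9.998 ± 0.333, Ash1l with 9.12 ± 0.239 and Adnp with 1.30 ± 0.271. The order in Chd8+/- libraries differed from that in Chd8+/+ libraries at P5 only in Ank3 and Wdfy3, whose values overlapped there too. On full exon lengths, 2 genes traded places in each P5 group, Wdfy3 with Ank3 in Chd8+/+ and Wdfy3 with Dyrk1a in Chd8+/-. TPM on full exon lengths gave the same order as RPKM on full exon lengths in every group.

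**Figure D1:**
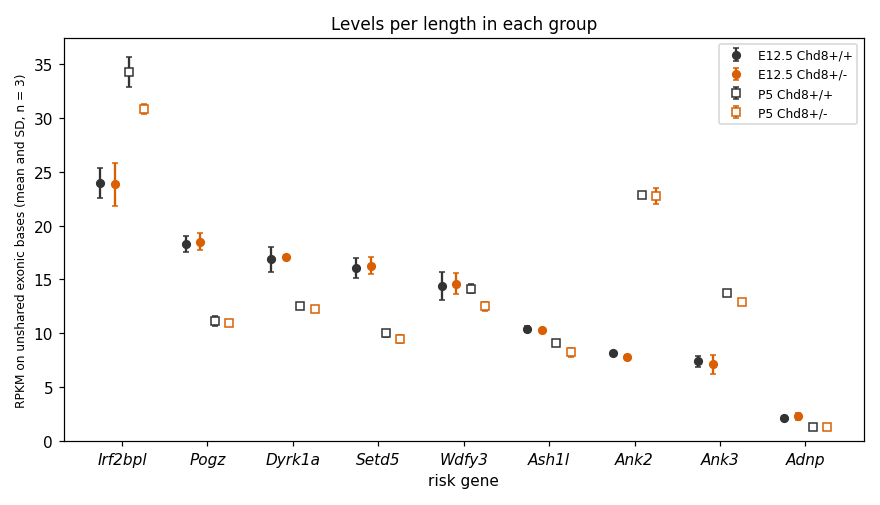
RPKM on unshared exonic bases (y axis) of each risk gene (x axis, ordered by level in E12.5 Chd8+/+) in the 4 groups, as mean and SD of 3 libraries. Irf2bpl is the highest in every group, and Ank2 rises from 8.13 to 22.8 RPKM between stages in Chd8+/+. Adnp is the lowest in every group, at a level that may be understated because of its shared exonic bases.

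Between E12.5 and P5, 8 of the 9 genes changed in Chd8+/+ neocortex, 3 rising and 5 falling, and all 9 changed in Chd8+/- neocortex, 3 rising and 6 falling (edgeR, adjusted p under 0.05). Most genes changed over this interval. Of all 19676 genes tested, 83.1% were called in Chd8+/+ (41.4% rising and 41.7% falling) and 82.9% in Chd8+/- (41.3% and 41.6%), so the count for the 9 genes lies near the background. Likewise 8 of the 9 had no overlap between stages in Chd8+/+ and 9 of 9 in Chd8+/-, as had 84.2% and 84.1% of all genes. The stages were sequenced and counted separately, and may also have been prepared separately. Both hemispheres were used at E12.5 and a single hemisphere at P5, so the effect of age cannot be told apart from these. In bulk tissue, fewer cells of a type and less RNA per cell cannot be told apart either.

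The ankyrins rose the most. Ank2 was at 245, 252 and 260 CPM in the E12.5 Chd8+/+ libraries and at 699.8, 710.3 and 718 CPM in the P5 Chd8+/+ libraries. In Chd8+/- neocortex the values were 245, 247 and 235 CPM at E12.5 and 686, 701 and 732 CPM at P5. Every P5 library lay far above every E12.5 library, with a log2 fold change of 1.49 (SE 0.047, edgeR adjusted p = 3.82e-13) in Chd8+/+ and 1.54 (SE 0.047, adjusted p = 2.63e-13) in Chd8+/-. Ank3 was at 235, 265 and 237 CPM in E12.5 Chd8+/+ and at 462, 447 and 459 CPM in P5 Chd8+/+ libraries. Its Chd8+/- libraries held 256, 250.2 and 202 CPM at E12.5 and 423, 425 and 433 CPM at P5. The stages did not overlap, and Ank3 rose by 0.89 (SE 0.077, adjusted p = 4.77e-08) in Chd8+/+ and by 0.85 (SE 0.077, adjusted p = 8.02e-08) in Chd8+/- on the log2 scale.

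Irf2bpl was the third gene to rise. Its Chd8+/+ libraries held 105, 94.0 and 96.3 CPM at E12.5 and 137, 148 and 139 CPM at P5, and its Chd8+/- libraries held 107, 92.2 and 94.3 CPM at E12.5 and 125, 128 and 128 CPM at P5. The stages were separate in both genotypes. The log2 fold change was 0.52 (SE 0.057, edgeR adjusted p = 7.75e-07) in Chd8+/+ and 0.37 (SE 0.057, adjusted p = 2.67e-05) in Chd8+/-.

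Adnp, Pogz and Setd5, all of them chromatin proteins, fell by similar amounts. Pogz was at 168, 162 and 176 CPM in E12.5 Chd8+/+ and at 99.8, 100.1 and 107 CPM in P5 Chd8+/+ libraries, for a log2 fold change of -0.72 (SE 0.043, edgeR adjusted p = 6.15e-10). In Chd8+/- its values were 171, 178 and 163 CPM at E12.5 and 102, 100.2 and 100.8 CPM at P5, a log2 fold change of -0.76 (SE 0.043, adjusted p = 3.65e-10). Setd5 was at 303, 275.003 and 307 CPM in E12.5 Chd8+/+ and at 184, 177 and 189 CPM in P5 Chd8+/+ libraries, for a log2 fold change of -0.69 (SE 0.055, adjusted p = 2.01e-08). All P5 libraries of Pogz and Setd5 lay below all E12.5 libraries. The Chd8+/- values of Setd5 were 295, 315 and 286 CPM at E12.5 and 167, 181 and 175 CPM at P5, a log2 fold change of -0.78 (SE 0.055, adjusted p = 4.73e-09). Adnp, at its low counts, was at 1.99, 1.98 and 2.19 CPM in E12.5 Chd8+/+ and at 1.42, 1.38 and 0.949 CPM in P5 Chd8+/+ libraries, for a log2 fold change of -0.71 with a standard error of 0.18 (adjusted p = 0.00185). In Chd8+/- it was at 1.79, 2.28 and 2.44 CPM and at 1.34, 1.08 and 1.34 CPM, a log2 fold change of -0.80 (SE 0.18, adjusted p = 0.000866). Its stages did not overlap in either genotype.

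Dyrk1a and Ash1l fell less. Dyrk1a was at 134, 134 and 150.4 CPM in E12.5 Chd8+/+ and at 102, 103 and 106 CPM in P5 Chd8+/+ libraries, for a log2 fold change of -0.43 (SE 0.043, edgeR adjusted p = 3.28e-07). Its Chd8+/- libraries held 141, 142 and 139 CPM and 99.3, 101 and 102 CPM, a log2 fold change of -0.48 (SE 0.043, adjusted p = 8.67e-08). No P5 library of the kinase reached an E12.5 library. Ash1l was at 154, 145 and 152 CPM in E12.5 Chd8+/+ and at 136, 132 and 129 CPM in P5 Chd8+/+ libraries, for a log2 fold change of -0.19 (SE 0.040, adjusted p = 0.000650). Its Chd8+/- libraries held 149.8, 150.3 and 146 CPM and 112, 123 and 122 CPM, a log2 fold change of -0.32 (SE 0.040, adjusted p = 3.96e-06). These stages did not overlap either.

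Wdfy3 was the exception. Its Chd8+/+ libraries held 216, 192 and 230.2 CPM at E12.5 and 216, 208 and 203 CPM at P5, and these overlapped, with a log2 fold change of -0.024 (SE 0.064, 95% interval -0.16 to 0.11, edgeR adjusted p = 0.731). The sign of this value was reversed with RLE size factors (0.017) and with DESeq2 (0.015). In Chd8+/- its libraries held 215, 231 and 203 CPM at E12.5 and 179, 192 and 184 CPM at P5, with no overlap and a log2 fold change of -0.23 (SE 0.064, adjusted p = 0.00475). Without P5 Chd8+/- library 3 all 9 genes were still called between stages in Chd8+/-, at values that ran from -0.85 (Adnp) to 1.52 (Ank2), with Wdfy3 at -0.22 (adjusted p = 0.0155). Whether this fall differs between the genotypes is the test of the interaction given further on, which it did not pass.

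**Figure D2:**
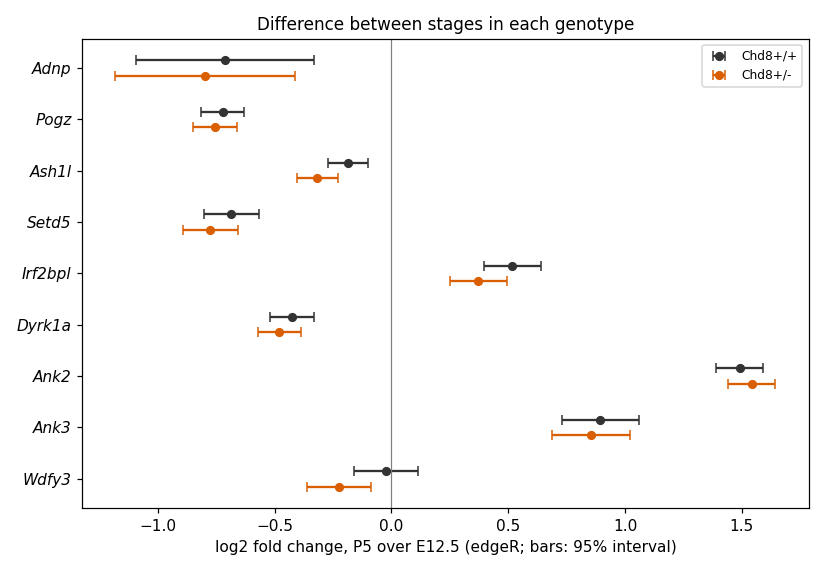
Log2 fold change of each risk gene from E12.5 to P5 (x axis) in Chd8+/+ and in Chd8+/- neocortex, with 95% intervals of the edgeR model. Ank2, Ank3 and Irf2bpl lie above 0 and the other genes below, with the interval of Wdfy3 in Chd8+/+ (-0.16 to 0.11) crossing 0.

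At E12.5 none of the 9 genes differed between genotypes by any test used. edgeR called 0 of the 9, against a background of 0.00553% of 18081 genes, with 0 at an unadjusted p under 0.05 (5.15% of all genes, 2.84% lower), and DESeq2 called 0 (0.0102%). None was separate between genotypes, whereas 11.4% of all genes were, 5.76% with the lower values in Chd8+/-. A log2 fold change below 0 was found for 4 of the 9 and for 49.8% of all genes. The log2 fold changes ran from -0.060 for Ank2 to 0.085 for Adnp, with a median of 0.014 beside 0.00058 over all genes tested, and adjusted p-values from 0.964 to 0.996. The libraries of the genotypes overlapped for every one of the 9, Ank2 included, whose Chd8+/- values (245, 247 and 235 CPM) all lay below the higher pair of Chd8+/+ values (252 and 260 CPM). For the 8 genes other than Adnp the 95% intervals of the log2 fold changes stayed within -0.26 and 0.18, the lowest bound being that of Ank3 and the highest that of Wdfy3. The narrowest was that of Ash1l, -0.099 to 0.068. For Adnp the interval was -0.27 to 0.44.

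**Figure D3:**
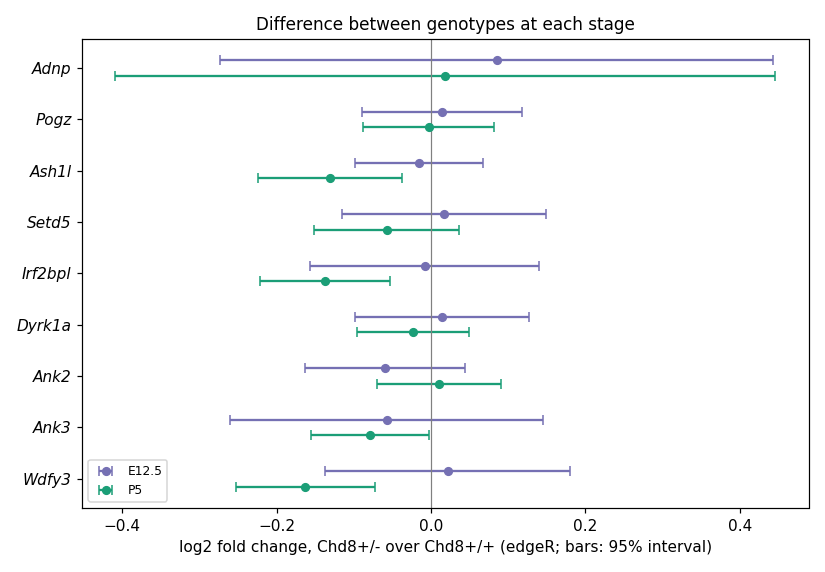
Log2 fold change of each risk gene between Chd8+/- and Chd8+/+ (x axis) at E12.5 and at P5, with 95% intervals of the edgeR model. At E12.5 every interval includes 0. At P5 the intervals of Wdfy3, Irf2bpl, Ash1l and Ank3 lie below 0 before adjustment for the number of genes tested.

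At P5 the Chd8+/- libraries of Wdfy3, Irf2bpl, Ash1l and Ank3 lay below all Chd8+/+ libraries with fitted differences from -5.35% (Ank3) to -10.7% (Wdfy3). None of the 9 genes passed the adjusted edgeR test with its filter on low counts. edgeR called 0 of the 9 (0.00536% of 18666 genes), 4 had an unadjusted p under 0.05, all lower, and DESeq2 called 2, Wdfy3 and Irf2bpl. An unadjusted p this low was found for 17.8% of all genes (9.77% lower), 23.4% were separate between genotypes (14.8% lower) and 5.22% of those given an adjusted p by DESeq2 were called. Among the 9 genes 7 had a log2 fold change below 0, as had 49.6% of all genes, and their median was -0.058 beside 0.0017 over all genes. Keeping all genes with at least 1 count, edgeR called Wdfy3 (adjusted p = 0.0217) and Irf2bpl (0.0487), among 995 genes called over all.

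Wdfy3 had the largest P5 difference of the 9 with all libraries and no length offsets. Irf2bpl exceeded it with the offsets given further on and without Chd8+/+ library 1 (-0.16 against -0.14). Its P5 values were 216, 208 and 203 CPM in Chd8+/+ and 179, 192 and 184 CPM in Chd8+/- libraries. The genotypes did not overlap, and the log2 fold change was -0.16 (SE 0.041, 95% interval -0.25 to -0.073, edgeR adjusted p = 0.116, DESeq2 adjusted p = 0.0117). Over all the settings tried its adjusted p ran from 0.00366 to 0.407. With DESeq2 the call held without Chd8+/+ library 3 (adjusted p = 0.0138) or Chd8+/- library 2 (0.00366), and was lost without Chd8+/+ library 1 (0.236), Chd8+/+ library 2 (0.0721), Chd8+/- library 1 (0.0760) or Chd8+/- library 3 (0.0890).

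Irf2bpl was at 137, 148 and 139 CPM in Chd8+/+ and at 125, 128 and 128 CPM in Chd8+/- libraries at P5. Again the groups were separate, with a log2 fold change of -0.14 (SE 0.038, 95% interval -0.22 to -0.053, edgeR adjusted p = 0.130, DESeq2 adjusted p = 0.0471). The DESeq2 call was lost without any 1 of the 6 libraries, with adjusted p-values from 0.0698 without Chd8+/- library 2 to 0.288 without Chd8+/+ library 2. Ash1l was at 136, 132 and 129 CPM in Chd8+/+ and at 112, 123 and 122 CPM in Chd8+/- libraries. Its groups did not overlap, with a log2 fold change of -0.13 (SE 0.042, edgeR adjusted p = 0.163, DESeq2 adjusted p = 0.0886). Ank3 was at 462, 447 and 459 CPM in Chd8+/+ and at 423, 425 and 433 CPM in Chd8+/- libraries. Its groups were separate too, with a log2 fold change of -0.079 (SE 0.035, edgeR adjusted p = 0.268, DESeq2 adjusted p = 0.203).

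Without Chd8+/- library 3, which stood apart, the P5 log2 fold changes were -0.15 for Wdfy3 (edgeR adjusted p = 0.219), -0.13 for Irf2bpl (0.222), -0.14 for Ash1l (0.239) and -0.080 for Ank3 (0.408). Those of the other 5 genes ran from -0.051 for Setd5 to 0.0081 for Pogz, with the signs of Adnp (-0.022), Pogz and Ank2 (-0.0067) reversed.

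The other 5 genes overlapped between genotypes at P5. Setd5 had a log2 fold change of -0.058 (SE 0.043, 95% interval -0.15 to 0.037), Dyrk1a of -0.024 (SE 0.033, -0.096 to 0.049), Pogz of -0.0029 (SE 0.038, -0.088 to 0.082), Ank2 of 0.010 (SE 0.036, -0.071 to 0.091) and Adnp of 0.019 (SE 0.19, -0.41 to 0.45). Their edgeR adjusted p-values ran from 0.510 (Setd5) to 0.977 (Pogz), and DESeq2 gave Adnp no adjusted p. With a single library left out (edgeR or DESeq2), the log2 fold change of Setd5 ran from -0.086 without Chd8+/+ library 2 to -0.029 without Chd8+/+ library 3, and Dyrk1a reached -4.7e-05 without Chd8+/+ library 3. Ank2 and Ank3 are thus closely related genes of similar exon length, one with overlapping and the other with separate libraries, and the difference between them was not tested.

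Over all genes at P5 the log2 fold change was correlated with log2 exon length (Pearson r = -0.16 over 18666 genes, which are not independent, beside 0.039 at E12.5), longer genes being lower in Chd8+/-. With offsets that remove this trend from each library the P5 value of Irf2bpl, the shortest gene, stayed at -0.14 (edgeR adjusted p = 0.142). That of Wdfy3 became -0.086 and that of Ash1l -0.056, while Ank3 (0.035), Setd5 (0.029), Dyrk1a (0.020) and Pogz (0.047) turned above 0. Ank2 moved from 0.010 to 0.12 (edgeR adjusted p = 0.162), and the median of the 9 genes moved to 0.029. The part of length in the differences of single genes was not tested.

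**Figure D4:**
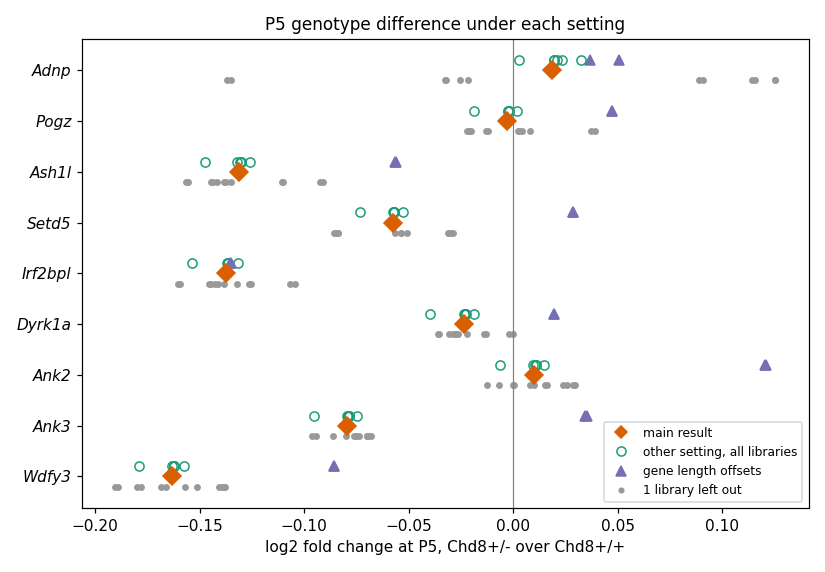
Log2 fold change between Chd8+/- and Chd8+/+ at P5 (x axis) of each risk gene as reported (diamonds), the other settings with all libraries (open circles), offsets for gene length (triangles) and with 1 library left out (dots, edgeR and DESeq2). Wdfy3, Irf2bpl and Ash1l stay below 0 under every setting shown, and Ank3 lies above 0 only with the length offsets (0.035).

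Markers of other cells that a dissection of the neocortex can include had lower summed levels in Chd8+/- libraries at P5. Over the Chd8+/+ and Chd8+/- libraries respectively, the 9 markers of striatal medium spiny neurons summed to 348 to 377 and 249.8 to 312 CPM, the 8 of choroid plexus to 448 to 579 and 327 to 385 CPM, the 7 of endothelium to 245 to 273.6 and 211 to 241 CPM, and the 9 of GABAergic interneurons to 703 to 725 and 602 to 681 CPM. These sums did not overlap between genotypes, and no marker of these lists was at 0. All 9 striatal, 8 choroid plexus, 6 endothelial and 8 interneuron markers had a log2 fold change below 0, although edgeR called none of them and DESeq2 called 6, 4, 4 and 1. The sums for cortical excitatory neurons (2389 to 2605 and 2455 to 2593 CPM), astrocytes (1552 to 1603 and 1384 to 1594), microglia (107 to 142 and 109 to 128), meninges (540 to 613 and 528 to 711), the oligodendrocyte lineage (474 to 510 and 458 to 498), cortical progenitors (322 to 360 and 308 to 333) and erythrocytes (122 to 131 and 106 to 125 CPM) overlapped. Of the 11 progenitor markers 9 had a P5 log2 fold change below 0 and 2 above, with a median of -0.11. By edgeR 4 of them were lower and 1 higher at an unadjusted p under 0.05. At E12.5 the endothelial sum was lower without overlap (264 to 275.9 and 230 to 244 CPM). The sum of the 7 astrocyte markers, of which 5 passed the filter there, was higher by a narrow gap (332 to 340.8 and 341.2 to 380 CPM). This sum alone does not show that astrocytes were present at E12.5. The part of these cells in the P5 differences of the 9 genes was not tested.

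The genotype difference was not shown to differ between stages for any of the 9 genes. edgeR called 0 of the 9 for the interaction of genotype and stage (0 of 19676 genes, or 0%), DESeq2 called 0 of the 9, and 2 had an unadjusted p under 0.05, both in the direction of a lower P5 value, as had 6.87% of all genes (DESeq2 called 8 genes over all, or 0.0245%). Of the 9 interactions 8 were below 0, as were 54.2% over all genes. With length offsets 4 were, since Pogz (0.031), Ank3 (0.074), Dyrk1a (0.0040) and Setd5 (0.00075) turned above 0. The 2 genes with an unadjusted p under 0.05 were Ash1l, with an interaction of -0.13 on the log2 scale (SE 0.057, edgeR adjusted p = 0.472), and Wdfy3, with -0.20 (SE 0.091, edgeR adjusted p = 0.485). The interaction of Irf2bpl was -0.15 (SE 0.080, edgeR adjusted p = 0.560), and those of the other 6 genes ran from -0.091 for Setd5 to 0.053 for Ank2. Without P5 Chd8+/- library 3 none was called either, with -0.15 for Ash1l, -0.20 for Wdfy3, -0.15 for Irf2bpl and the other 6 from -0.13 for Adnp to 0.028 for Ank2. Single libraries moved these values, that of Irf2bpl to -0.053 without E12.5 Chd8+/- library 1 and that of Wdfy3 to -0.12 without E12.5 Chd8+/+ library 2, and length offsets moved that of Ash1l to -0.049 and that of Wdfy3 to -0.12. With 1 library left out the interaction of Setd5 ran from -0.12 to -0.030 and that of Ank2 from 0.028 to 0.11.

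**Figure D5:**
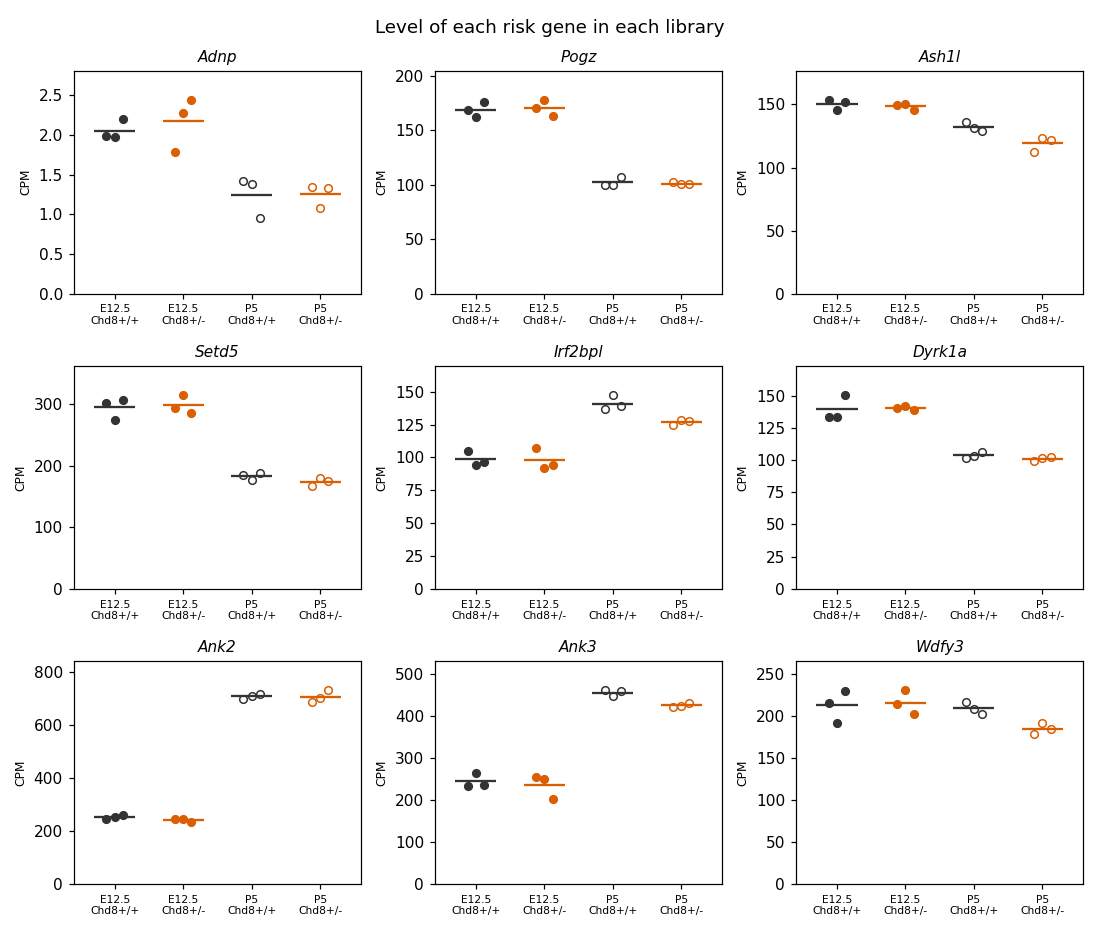
CPM scaled by TMM (y axis, from 0) of each risk gene in each of the 12 libraries (points, in order of library number) with group means (lines). Black marks Chd8+/+ and orange Chd8+/-, filled points E12.5 and open points P5. The P5 groups of Wdfy3, Irf2bpl, Ash1l and Ank3 do not overlap, whereas all E12.5 groups do.

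The partners and relatives of the 9 genes were followed in lists. In none of the lists did edgeR, with its filter on low counts, call a gene for genotype at either stage. Keeping all genes with at least 1 count, edgeR called 995 genes over all at P5. Among the genes named below, most of which were named for their small p-values, these included Cacna2d3 (adjusted p = 3.15e-05), Kmt2e (0.000804), Hipk2 (0.000871), Lyst (0.00390), Scn2a (0.00505), Map1lc3a (0.00777), Nrcam (0.0298), L1cam (0.0375) and Map1lc3b (0.0413). The P5 counts and medians can be read beside 49.6% of all genes below 0, 9.77% lower at an unadjusted p under 0.05, 5.22% called by DESeq2 and a median of 0.0017. The lists were not matched to all genes in exon length, with which the P5 values were correlated (Pearson r = -0.16). The part of length in the lists was not tested. The stage counts can be read beside 41.4% of all genes rising and 41.7% falling in Chd8+/+, and 41.3% and 41.6% in Chd8+/-.

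Among the HP1 and ChAHP partners of ADNP and POGZ, 6 of 8 genes had a P5 log2 fold change below 0 (median -0.043), 1 with an unadjusted p under 0.05. It was Chd4, the remodeler of the ADNP complex, at -0.12 (SE 0.037, edgeR adjusted p = 0.153). Adnp2, the paralog of Adnp, was at 30.1 ± 1.29 CPM in Chd8+/+ and 27.5 ± 0.419 CPM in Chd8+/- (SD, n = 3), with a log2 fold change of -0.11 (SE 0.051, adjusted p = 0.288) and no overlap. All 8 partners fell from E12.5 to P5 in both genotypes (edgeR, medians -1.32 in Chd8+/+ and -1.38 in Chd8+/-). Adnp2 fell by 0.88 in Chd8+/+ and by 1.00 in Chd8+/- on the log2 scale.

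The H3K36 methyltransferases and partners of ASH1L likewise fell, 7 of 7 in both genotypes (edgeR, medians -0.72 and -0.74), of which DESeq2 called 6 in Chd8+/+ and 7 in Chd8+/-. At P5 6 of the 7 had a genotype difference below 0 (median -0.062). Nsd3, a methyltransferase of the same residue, was the only one with an unadjusted p under 0.05 (log2 fold change -0.11, SE 0.042, adjusted p = 0.209). Of the 11 genes of the NCoR and HDAC3 complex, the associated PAF1 complex and Kmt2e, the paralog of Setd5, all 11 fell with stage in both genotypes by edgeR and 10 passed by DESeq2 (medians -0.45 and -0.51), and 7 had a P5 genotype difference below 0 (median -0.048), with 3 lower and 1 higher at an unadjusted p under 0.05. Kmt2e was at 165, 170.5 and 170.5 CPM in Chd8+/+ and at 136, 152 and 140.0 CPM in Chd8+/- libraries at P5. These were separate, with a log2 fold change of -0.23 (SE 0.044, edgeR adjusted p = 0.0950, DESeq2 adjusted p = 0.000761). The edgeR test passed without Chd8+/- library 2 (adjusted p = 0.0205). Ctr9, a PAF1 complex subunit, was at -0.13 (SE 0.035, adjusted p = 0.123, DESeq2 adjusted p = 0.0725).

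Irf2bpl differed from its relatives Irf2bp1 and Irf2bp2 and from Irf2, the factor that gave the family its name, in that it passed the stage test and they did not, a difference that was not itself tested. None of the 3 passed the edgeR test between stages in either genotype or between genotypes (unadjusted p under 0.05 for 0 of 3 in each comparison, DESeq2 called 0). Irf2bp1 was at 52.7 ± 2.09 CPM in E12.5 Chd8+/+ and 53.6 ± 2.29 CPM in P5 Chd8+/+ libraries, and Irf2bp2 at 25.7 ± 0.814 and 27.2 ± 1.33 CPM. Their genotype differences at P5 were 0.034 (SE 0.047) and 0.032 (SE 0.056), both smaller than their standard errors.

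The DYRK kinases and partners of DYRK1A were mixed between stages, with 6 rising and 7 falling of 13 tested in Chd8+/+. At P5 7 of 13 had a genotype difference below 0 (median -0.055), 3 with an unadjusted p under 0.05. The kinase Hipk2 was at 37.5, 38.1 and 32.4 CPM in Chd8+/+ and at 25.0, 28.4 and 31.2 CPM in Chd8+/- libraries, for a log2 fold change of -0.34 (SE 0.083, edgeR adjusted p = 0.116, DESeq2 adjusted p = 0.00462), and these did not overlap. Dyrk2 was at -0.19 (SE 0.069, adjusted p = 0.205) with overlapping libraries. Dyrk1b, the closest relative of Dyrk1a, fell by 0.75 in Chd8+/+ and by 0.73 in Chd8+/- with stage and had a P5 genotype difference of 0.014 (SE 0.071).

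Genes of the ankyrin and spectrin membrane skeleton rose, as did Ank2 and Ank3. In Chd8+/+ 16 of 17 genes rose and 1 fell, with a median of 1.30, and in Chd8+/- 13 rose and 1 fell, with a median of 1.11. Ank1, the third ankyrin gene, rose by 1.55 in Chd8+/+ and by 1.36 in Chd8+/-, from 13.9 ± 1.36 to 40.8 ± 2.27 CPM in the former. At P5 13 of the 17 had a genotype difference below 0 (median -0.060), 5 with an unadjusted p under 0.05, and DESeq2 called 3. L1cam, a neural adhesion molecule that binds ankyrin, was at 751, 735 and 750.1 CPM in Chd8+/+ and at 671, 680.1 and 648 CPM in Chd8+/- libraries, for a log2 fold change of -0.15 (SE 0.035, edgeR adjusted p = 0.116, DESeq2 adjusted p = 0.00785), again without overlap. Nrcam, another ankyrin-binding adhesion molecule, was at -0.16 (SE 0.041, adjusted p = 0.121, DESeq2 adjusted p = 0.0107). Ank1 was at -0.080 (SE 0.055, adjusted p = 0.476).

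Among the BEACH domain relatives of Wdfy3, 7 of 8 had a P5 genotype difference below 0 (median -0.085), and DESeq2 called 2. Lyst, which acts in lysosome traffic, was at 39.0, 38.8 and 34.8 CPM in Chd8+/+ and at 27.6, 32.8 and 31.7 CPM in Chd8+/- libraries, for a log2 fold change of -0.28 (SE 0.070, edgeR adjusted p = 0.117, DESeq2 adjusted p = 0.0114). Nbea was at 478, 485 and 467 CPM and at 431, 421 and 432 CPM, a log2 fold change of -0.14 (SE 0.035, edgeR adjusted p = 0.117, DESeq2 adjusted p = 0.00835), which became -0.026 with the length offsets. Both were separate between genotypes. Wdfy4, the paralog of Wdfy3, was low (2.54 ± 0.207 CPM in P5 Chd8+/+) and had a difference of -0.066 (SE 0.13).

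Most of the selective autophagy genes had P5 values on the other side of 0 from Wdfy3. Of 15 genes 12 had a log2 fold change above 0 (median 0.066), 4 of them with an unadjusted p under 0.05, beside 3 lower ones with an unadjusted p under 0.05. Over all genes 17.8% had an unadjusted edgeR p under 0.05 in either direction. The part of exon length in this contrast with Wdfy3 was not tested. Map1lc3a, which encodes a form of the autophagosome protein LC3, was at 192, 197 and 191 CPM in Chd8+/+ and at 232, 201 and 223 CPM in Chd8+/- libraries, for a log2 fold change of 0.19 (SE 0.052, edgeR adjusted p = 0.127, DESeq2 adjusted p = 0.0103). Without Chd8+/- library 2 it passed the edgeR test (adjusted p = 0.0286). Map1lc3b was at 200.5, 200.2 and 204 CPM and at 232, 211 and 220.3 CPM, a log2 fold change of 0.15 (SE 0.042, edgeR adjusted p = 0.133, DESeq2 adjusted p = 0.0256). Both were higher without overlap. At E12.5 Rb1cc1 was at 0.12 (SE 0.040, edgeR adjusted p = 0.942).

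Of 51 other autism genes in the top categories of the study's gene list, 40 had a P5 genotype difference below 0, with a median of -0.090, 24 lower and 0 higher with an unadjusted p under 0.05, and DESeq2 called 7. Since this list was used by the study on these samples, the count is not independent evidence of its direction. The lowest p-values belonged to Cacna2d3, a calcium channel subunit, at -0.33 (SE 0.070, edgeR adjusted p = 0.100, DESeq2 adjusted p = 0.000603), and Scn2a, a sodium channel, at -0.20 (SE 0.045, adjusted p = 0.110, DESeq2 adjusted p = 0.00271). Without Chd8+/- library 2 Cacna2d3 passed the edgeR test (adjusted p = 0.0183). At E12.5 the median of the 51 genes was -0.0065, with 3 lower and 1 higher at an unadjusted p under 0.05. Spast was at 0.12 (SE 0.039, edgeR adjusted p = 0.942).

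Finally, the gene whose log2 CPM followed each of 8 of the 9 most closely over the 12 libraries was sought among 10802 genes with a mean of at least 10 CPM. It was Slc41a1 for Ank2 (Pearson r = 0.999), A830082K12Rik for Pogz (0.999), Bahcc1 for Setd5 (0.998), Prdm2 for Dyrk1a (0.995), Sorcs3 for Ank3 (0.995), Sesn3 for Ash1l (0.983), Sdhc for Adnp (0.968) and Abl2 for Wdfy3 (0.953). The 12 points span both stages, between which most of the genes differed. The part of this difference in the values was not tested, and the likeness is given as a description.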

How the data were processed

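RNA of the 12 libraries was sequenced in 2 runs each. According to the submitters' processing notes and the study's methods, the authors trimmed reads with Trim Galore 0.4.1, checked them with FastQC 0.11.2, aligned them with TopHat2 2.1.0 to the mouse genome (mm10, GRCm38.p4) and counted read pairs per Ensembl gene with featureCounts 1.5.0. The deposited values are these raw counts per gene and run. The library preparation kept strand, but the recorded P5 counting command sets no strand option and that for E12.5 is not given in the sources used here, so antisense overlaps cannot be separated. The notes also name Bowtie, DESeq and DESeq2 1.10.1.

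The runs of a library were summed. They differed little (chi-square per degree of freedom 1.18 to 1.54, against 7.09 to 18.1 between libraries of a group, and 43.7 and 49.7 for the pairs that include P5 Chd8+/- library 3). Symbols were matched for 46005 of 46603 genes. Genotypes were compared within a stage over 6 libraries, and stages and the interaction over all 12, with edgeR 4.0.16 (filterByExpr, TMM, quasi-likelihood test) in R 4.3.3, with Benjamini-Hochberg adjustment over all genes and a threshold of 0.05. DESeq2 1.42.0, other scalings, another filter, offsets from a loess trend on exon length (span 0.5), a replicate block and leaving out each library were alternatives. DESeq2 with each library left out, the block together with length offsets, and RPKM on unshared bases were added after the data were seen. Likeness between genes used log2(CPM + 0.5).

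Libraries with the same number deviated together at P5 (r = 0.611, 0.176 and 0.107) and between the stages of Chd8+/- (0.611, 0.274 and 0.267), but not at E12.5 (-0.541, -0.150 and -0.440) or between the stages of Chd8+/+ (-0.430, 0.466 and -0.517). At P5, Chd8+/+ library 2 correlated better with Chd8+/- library 3 (0.466) and Chd8+/+ library 3 with Chd8+/- library 2 (0.390). Xist was high in library 1 of both genotypes at P5 (1025 and 835 CPM). At E12.5 it was high in Chd8+/+ library 3 and Chd8+/- library 1, the pair between genotypes that correlated best there (0.524). The part of Xist status in these correlations was not tested. The labels do not say that a number marks a shared animal, litter or batch, so the numbers at P5 are at most a hint of pairs.

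The 9 genes and the partner and marker lists were chosen with earlier results of these data known. In each list, at most 2 genes per stage with the smallest unadjusted p under 0.05 were named, and also the paralogs Ank1, Adnp2, Dyrk1b, Irf2bp1, Irf2bp2, Kmt2e and Wdfy4. A gene that this rule names at E12.5 and the gene most like Irf2bpl are not reported here.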

Additional observations from a re-analysis of the deposited data

How the results depend on the processing

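The stage calls of the 9 genes (8 in Chd8+/+, 9 in Chd8+/-) held under every setting run, and edgeR called none of them for genotype at E12.5 or for the interaction under any. The cause of the changes below was not tested. Adnp rests on few counts, and 3 libraries per group limit what can be called. Age cannot be told apart from the separate sequencing and counting of the stages, or from any separate preparation. Keeping all genes with at least 1 count gave 13 genes called at E12.5, 995 at P5 and 17 for the interaction, with 2 of the 9 genes called at P5 (Wdfy3 and Irf2bpl), and DESeq2 gave 3, 651 and 8 genes and the same 2 of the 9. Wdfy3 between stages in Chd8+/+ became 0.017 with RLE size factors and 0.015 with DESeq2. Scaling by library size alone turned Pogz at P5 to 0.0020 and Irf2bp1 between stages to -0.029 in Chd8+/+ and -0.0040 in Chd8+/-.

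With length offsets the median of the 9 genes at P5 was 0.029, Pogz 0.047, Ank3 0.035, Dyrk1a 0.020, Setd5 0.029 and Dyrk1b -0.010. Between stages, Irf2bp1 was -0.089 and Irf2bp2 -0.0065 in Chd8+/+, and Irf2bp1 -0.097 in Chd8+/-. The interaction was 0.031 for Pogz, 0.074 for Ank3, 0.0040 for Dyrk1a and 0.00075 for Setd5. With the replicate block 0 genes were called at E12.5 (Chd8 adjusted p = 0.346) and 4 at P5, and it changed no other call of the 9 genes. The replicate block with length offsets gave 0 genes at E12.5 and 6 at P5, a P5 median of 0.029, Pogz 0.048, Ank3 0.034, Dyrk1a 0.020, Setd5 0.029 and Dyrk1b -0.0093, stage values of -0.087 (Irf2bp1) and -0.0057 (Irf2bp2) in Chd8+/+ and -0.097 (Irf2bp1) in Chd8+/-, and interactions of 0.030 (Pogz), 0.076 (Ank3), 0.0029 (Dyrk1a) and 0.00064 (Setd5). A single model over the 12 libraries called 2 genes at E12.5 and 4 at P5, with Ank2 at -0.0061 and Dyrk1b at -0.0019 at P5.

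With 1 library left out (edgeR and DESeq2), 0 to 16 genes were called at E12.5, 1 to 891 at P5 (edgeR 1 to 327, the latter without P5 Chd8+/- library 2) and 0 to 2 for the interaction (edgeR), with 0 to 1 of the 9 genes at P5. At E12.5 the log2 fold changes ran from -0.010 to 0.20 (Adnp), -0.014 to 0.049 (Pogz), -0.12 to 0.044 (Ank3), -0.019 to 0.077 (Dyrk1a), -0.042 to 0.086 (Wdfy3), -0.079 to 0.038 (Irf2bpl), -0.026 to 0.051 (Setd5), -0.068 to 0.22 (Ank1), -0.050 to 0.024 (Adnp2), -0.061 to 0.015 (Dyrk1b), -0.017 to 0.055 (Irf2bp1), -0.00055 to 0.046 (Irf2bp2) and -0.061 to 0.19 (Wdfy4). At P5 they ran from -0.14 to 0.13 (Adnp), -0.022 to 0.039 (Pogz), -0.013 to 0.030 (Ank2), -0.035 to 0.089 (Dyrk1b) and -0.12 to 0.0021 (Wdfy4), and the median of the 9 genes from -0.086 to -0.032. Between stages they ran from -0.098 to 0.037 (Wdfy3) and -0.015 to 0.049 (Irf2bp1) in Chd8+/+ and from -0.013 to 0.070 (Irf2bp1) in Chd8+/-. The interaction ran from -0.24 to 0.037 (Adnp), -0.055 to 0.0074 (Pogz), -0.12 to 0.047 (Ank3) and -0.10 to 0.0063 (Dyrk1a).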
